A study of Mus musculus with 7 samples.

Results

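The 37 genes described here act in mitosis, the stage of the cell cycle in which a cell divides its copied chromosomes between its daughters. They were taken by symbol from a fixed list of mitosis and spindle genes, and all 37 were found among the 31053 genes of the files. They were followed through single-cell RNA of mouse brain, in oligodendrocyte lineage cells and in the cell types around them, in 7 droplet libraries.

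The libraries came from untreated mice. Cortex was taken at postnatal day (P) 2, 7, 15 and 60 from tissue above the lateral ventricles, with white matter, grey matter and the ventricular-subventricular zone (SVZ) included. At P60 grey matter (above the cortical white matter) and white matter (just above the ventricles, with corpus callosum and SVZ) were also taken apart, and at P7 the dorsal and lateral SVZ was taken. The P7 SVZ mice were C57BL/6 and all others CD1. P2, P7 and P15 gave 4 early libraries and P60 gave 3 adult libraries. The labels do not state whether separate animals were used for each library. The p-values therefore measure only how far these libraries spread.

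Entry into mitosis is driven by the kinase Cdk1 bound to A and B cyclins, with the small Cks proteins as partners. Polo and Aurora kinases then build the spindle, kinetochore proteins tie chromosomes to it, and the Cdc20-activated ubiquitin machinery, to which Ube2c belongs, ends mitosis by destroying securin (Pttg1) and the cyclins. Many of these genes are transcribed late in the cycle through CCAAT boxes and a cell cycle homology region (CHR) in their promoters. In the postnatal brain such genes mark dividing progenitors, including oligodendrocyte precursor cells (OPCs), the source of myelinating oligodendrocytes, and SVZ cells that give rise to neuroblasts.

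The promoters of 4 members are shown because 2 of them hold both motifs and the other 2, Pttg1 and Nuf2, hold neither. Pttg1 and Nuf2 are among the genes whose RNA was found most apart from the rest. Cks1b, Hmgb2 and Cks2 are also among those genes, but their promoters do hold a motif. Birc5 and Nusap1, whose promoters also hold neither motif, are not among them. A link between the motifs and where the RNA was found was not tested. Each promoter shown is the RefSeq sequence from 250 bases before to 50 bases after the transcription start on build GRCm38.p6, with both motifs in capitals. The CCAAT box was searched under those letters and, for the other strand, as ATTGG. The CHR was searched as TTTGAA, which reads as TTCAAA on the other strand, and in the variant form TTCGAA. Cdc20 lies at chr4:118437294-118437593 on the minus strand, Ube2c at chr2:164769679-164769978 on the plus strand, Pttg1 at chr11:43425932-43426231 on the minus strand and Nuf2 at chr1:169531415-169531714 on the minus strand. In Ube2c a CCAAT box and the same box on the other strand overlap.
Cdc20: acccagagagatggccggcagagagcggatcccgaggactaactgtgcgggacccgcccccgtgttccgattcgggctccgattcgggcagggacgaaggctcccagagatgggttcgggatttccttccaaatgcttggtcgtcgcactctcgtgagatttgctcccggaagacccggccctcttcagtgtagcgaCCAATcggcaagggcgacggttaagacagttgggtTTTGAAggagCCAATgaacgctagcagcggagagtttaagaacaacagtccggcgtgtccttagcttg
Ube2c: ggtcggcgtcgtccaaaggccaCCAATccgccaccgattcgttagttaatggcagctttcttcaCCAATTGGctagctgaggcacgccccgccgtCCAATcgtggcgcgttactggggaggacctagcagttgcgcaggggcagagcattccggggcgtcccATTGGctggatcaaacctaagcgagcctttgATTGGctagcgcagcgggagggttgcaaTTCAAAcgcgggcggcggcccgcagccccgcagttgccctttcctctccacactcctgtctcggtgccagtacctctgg
Pttg1: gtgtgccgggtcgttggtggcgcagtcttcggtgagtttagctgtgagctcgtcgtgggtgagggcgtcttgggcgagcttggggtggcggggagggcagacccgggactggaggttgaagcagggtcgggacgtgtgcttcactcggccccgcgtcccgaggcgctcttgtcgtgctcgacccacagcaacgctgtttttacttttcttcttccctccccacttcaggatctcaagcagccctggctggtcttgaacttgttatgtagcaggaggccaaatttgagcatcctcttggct
Nuf2: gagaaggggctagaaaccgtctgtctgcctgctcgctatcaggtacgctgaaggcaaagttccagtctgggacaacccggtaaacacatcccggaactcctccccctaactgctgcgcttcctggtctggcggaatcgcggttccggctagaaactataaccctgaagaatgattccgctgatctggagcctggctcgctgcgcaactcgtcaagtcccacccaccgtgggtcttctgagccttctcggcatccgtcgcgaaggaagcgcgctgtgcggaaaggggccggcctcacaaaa

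RefSeq gave 33 promoters for 32 members. Pbk, Tpx2, Smc4, Aurkb and Ccna2 had no entry. CCAAT on either strand was in 75.8% of the member promoters and in 37.4% of all 32851 promoters, and the CHR was in 75.8% against 19.2%. Both were found in 22 member promoters (66.7%) and in 7.52% of all. Birc5, Nuf2, Nusap1, Pttg1 and Tacc3 held neither, which says only that these letters are not in these windows.

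After filtering, 20709 of 25747 barcodes were kept, with median depths of 2791 to 9537 UMIs (unique molecular identifiers, counted molecules) per kept cell. Over all barcodes, before filtering, the libraries held 10074763 to 45668007 UMIs. P7 SVZ stood apart in that 39.8% of its barcodes exceeded the 10% mitochondrial limit. Between libraries, 140 barcodes of kept cells recurred. Cells were clustered without the members and other cell cycle genes and named from markers, so classes carry the ending "-like". To compare libraries of unequal depth, each cell was thinned to 2000 UMIs, and a cell with UMIs of at least 3 different members was called dividing. The call rests on RNA alone.

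Of 19023 cells deep enough, 1829 (9.61%) were called dividing. The share was 5.78% in P2 cortex (185 of 3202 cells), 19.2% in P7 cortex (746 of 3884), 18.4% in P7 SVZ (626 of 3399) and 4.50% in P15 cortex (124 of 2753). At P60 it was 1.03% in cortex (25 of 2427), 2.66% in grey matter (42 of 1578) and 4.55% in white matter (81 of 1780). The P7 libraries were thus highest and P60 cortex lowest. Which library was lowest depended on the call. With at least 5 different members it was P60 grey matter, at 0.127% against 0.659% in P60 cortex. Without Hmgb2, Cks1b, Cks2, Smc4 and Pttg1 it was also P60 grey matter (3 of 1578 cells, against 17 of 2427 in P60 cortex). With at least 2 members, at 1000 or 4000 UMIs and without thinning, P60 cortex stayed lowest.

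Most dividing calls lay outside the oligodendrocyte lineage. Neural precursor-like cells gave 555 of the 1829 calls (30.3%), neuroblast-like cells 492 (26.9%), OPC-like cells 290 (15.9%), microglia-like cells 196 (10.7%), excitatory intermediate precursor-like cells 121 (6.62%) and astrocyte-like cells 81 (4.43%). The members' UMIs before thinning were spread in the same order, with 33.5% in neural precursor-like, 29.2% in neuroblast-like, 13.8% in OPC-like and 7.51% in microglia-like cells. These classes held 10.7, 9.06, 8.80 and 17.6% of the kept cells. Excitatory neuron-like cells, which no longer divide, were taken as the background: 1 of 2122 cells (0.0471%) was called. Their median depth before thinning was 12763 UMIs in P2 cortex, where that of OPC-like cells was 6341.5. Striatal neuron-like cells gave 0 of 557, which allows a share of up to 0.539%. Intervals and such limits cover counting error only. The neuron share need not hold as background for other classes. Of 132 ependymal-like cells 39 (29.5%) were called, yet Mki67 was found in 1 of the 38 called from the other members.

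The other genes of the cycle followed the call, although it did not use them. In P7 cortex, dividing OPC-like cells held on average 11.3 UMIs of 59 mitosis genes outside the 37 and 7.96 UMIs of 46 DNA replication genes, against 0.993 and 1.62 in OPC-like cells without any member. Dividing neuroblast-like cells of P7 cortex held 13.5 and 17.0 against 1.09 and 2.49. Dividing microglia-like cells of P7 cortex held 8.24 and 7.51 against 0.657 and 1.47. An exception was P60 grey matter, described with the microglia.

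**Figure D1:**
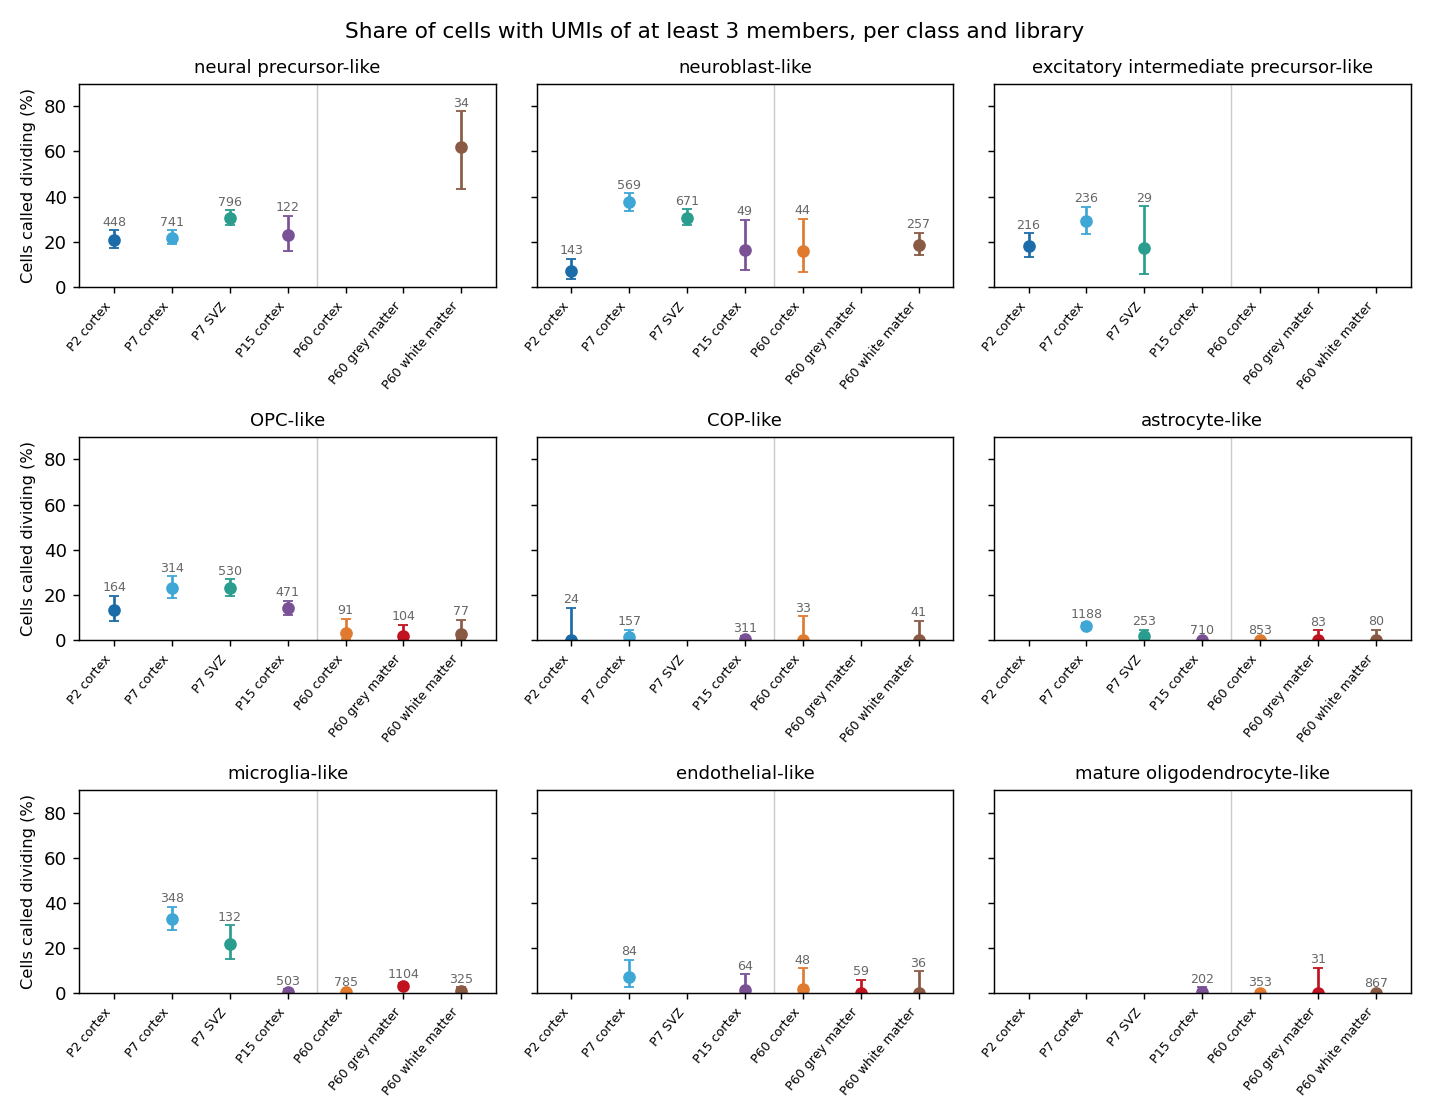
Share of cells called dividing (percent, y axis) in each library (x axis) for each class, in cells thinned to 2000 UMIs, with exact binomial 95% intervals. OPC-like and microglia-like shares are highest at P7 and low at P60, while neuroblast-like cells of P60 white matter still reach 18.7%.

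Among OPC-like cells the dividing share was 13.4% in P2 cortex (22 of 164, exact binomial 95% interval 8.602 to 19.6), 23.2% in P7 cortex (73 of 314, 18.7 to 28.3), 23.0% in P7 SVZ (122 of 530, 19.5 to 26.8) and 14.0% in P15 cortex (66 of 471, 11.01 to 17.5). At P60 it was 3.30% in cortex (3 of 91, 0.685 to 9.33), 1.92% in grey matter (2 of 104, 0.234 to 6.77) and 2.60% in white matter (2 of 77, 0.316 to 9.07). Without thinning the shares were higher, at 41.6% in P7 cortex and 4.13% in P60 grey matter, and 72 of 1823 OPC-like cells were too shallow for thinning. Every early share exceeded every adult share, although the interval of P2 cortex overlapped those of P60 cortex and P60 white matter. In the class 164 OPC-like cells held 10 or more members, 38 held exactly 3 and 117 exactly 2. Different clusters made up the class. Cluster 11 held 99.6% of the P7 SVZ cells, and the other libraries fell into clusters 4 and 15. In P15 cortex, 40 of 124 cells (32.3%) of cluster 15 and 26 of 347 (7.49%) of cluster 4 were called.

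Down the lineage calls were few after thinning. Of 576 cells like committed precursors (COPs), the next step after the OPC, 3 were called (0.521%). Of 287 newly formed oligodendrocyte-like cells 3 were called (1.05%), and of 1456 mature oligodendrocyte-like cells 2 were called (0.137%). The names COP-like and newly formed oligodendrocyte-like are not sharply divided. Cluster 23, named COP-like, had Enpp6 as first leading gene and 5 newly formed oligodendrocyte markers raised. Cluster 40, named newly formed oligodendrocyte-like, had 6 COP markers raised and 4 of 7 of its own. Of its cells 97.4% came from P7 SVZ, which held 0 COP-like cells. Without thinning the shares were 18.5% in COP-like, 37.2% in newly formed and 4.79% in mature oligodendrocyte-like cells, against 28.3% in OPC-like cells and 21.1% in excitatory neuron-like cells, the background. Median depths in P7 cortex were 13715.5 UMIs in COP-like, 17366 in newly formed oligodendrocyte-like and 7592 in OPC-like cells. In unthinned cells of P7 cortex COP-like cells (44.3%) were thus not below OPC-like cells. In 5 libraries with both classes, 36 of the 36 members tested were lower in COP-like than in OPC-like cells by edgeR (quasi-likelihood F test, p-values adjusted by Benjamini-Hochberg over all genes tested), where 26.9% of all genes tested were lower. Their median log2 fold change was -4.24, against -0.04 over all genes. Kif23, a motor of the central spindle, fell most, by 6.72 on the log2 scale (SE 0.49), and Knl1, a kinetochore scaffold, fell by 5.55 (SE 0.48). The smallest change was that of Cks1b, the Cdk1 partner that also serves in ubiquitin-driven removal of cell cycle inhibitors, at -1.09 (SE 0.23). Bub1 was not tested. In the cycle exit list, Cdkn1c, an inhibitor of cyclin-dependent kinases, was 1.87 higher (SE 0.27) in COP-like cells. Leaving out the library block reduced the members tested to 13, of which 12 were lower.

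Within OPC-like cells the summed level of the members was 2414 CPM (UMIs scaled to a fixed total for the class and library) in P2 cortex, 4570.4 in P7 cortex, 3850 in P7 SVZ and 2677 in P15 cortex. It was 1761 in P60 cortex, 611 in P60 grey matter and 534 in P60 white matter. P60 cortex lay nearer to P2 and P15 than to the other P60 libraries. After thinning, the 3 P60 libraries held 3 of 91, 2 of 104 and 2 of 77 called cells. Differences between the P60 sums can therefore rest on a few cells. In such sums, fewer dividing cells and less RNA per cell cannot be told apart. Values below follow the same library order, early libraries before adult ones.

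Between stages, 26 of 37 members were lower in adult OPC-like cells and 0 were higher (2.96% of all genes tested were) by edgeR (36 at an unadjusted p under 0.05, and 28 lower by DESeq2). Of all genes tested, 3.49% were lower. The members' median log2 fold change was -2.23 and that of all genes 0.01. For 29 members no adult value reached an early one. Of all genes tested, 22.7% had no overlap between the stages, counted in either direction. The count depended on single libraries. Without P60 grey matter 1 member (Cks1b) passed, without P60 white matter 9 did and without P7 cortex 17 did, where 0.0545, 0.957 and 1.75% of all genes were lower. The lowest count without any other library was 19. Grey and white matter were taken apart only at P60. P7 SVZ had no adult counterpart and differed from all other libraries in strain. The stage groups therefore differ in region and strain as well as age, and the part of each in the fall was not tested. This limit also holds for the stage tests of other classes that use these libraries.

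Markers of other classes moved with stage in the OPC-like sums. The summed level of 8 microglia markers was 12.8 to 108 CPM in the early sums and 289, 1098 and 107 CPM in the adult ones, with 4 of the 8 at 0 in P60 white matter. The 9 neuroblast markers went from 74.2 to 323 CPM early to 29.6 to 82.6 CPM in adults, where 3 to 8 of them were at 0. The 10 astrocyte markers went from 467 to 1059 CPM early to 1201 to 1768 CPM in adults. Their part in the result was not tested.

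Of the cyclin-dependent kinase engine, 3 of 6 members fell. Cdk1, the kinase that starts mitosis, stood at 80.1, 152, 114 and 73.9 CPM early and 46.9, 18.2 and 8.26 CPM in adults, a log2 fold change of -2.32 (SE 0.45, adjusted p = 0.0155 by edgeR). Cks1b stood at 83.8, 93.4, 74.3 and 84.0 CPM early and 22.2, 16.6 and 11.02 CPM in adults. The Cks1b groups were far apart, and it was the member with the lowest adjusted p (0.00215, same edgeR test) and the member that passed without each of the 7 libraries. Cks2 did not pass, since P60 cortex (153 CPM) lay above 3 of the early values (128, 206, 148 and 120 CPM), although grey and white matter were at 31.5 and 22.04. Ccnb1, a B cyclin, did not pass either, with 45.5, 202, 73.9 and 62.1 CPM early against 61.7, 6.62 and 2.75 CPM.

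Of the mitotic kinases, Plk1 passed and Aurka, Bub1 and Pbk did not. Plk1, the polo kinase, stood at 15.5, 54.7, 31.5 and 19.2 CPM early and at 12.4, 1.66 and 0 CPM in adults (log2 fold change -2.98, SE 0.76). The white matter value of 0 lies under the limit of 8.26 CPM that 3 UMIs would give in that sum. All 3 chromosomal passenger members fell: Aurkb, Birc5 and Cdca8. Birc5, which holds Aurora B at the centromere, stood at 96.5, 186, 154 and 124 CPM early and 59.3, 16.6 and 5.51 CPM in adults (log2 fold change -2.59, SE 0.49).

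The degradation group split. Ube2c, the ubiquitin-conjugating enzyme that works with the anaphase-promoting complex, stood at 182, 371, 271 and 243 CPM early and 136, 9.93 and 16.5 CPM in adults. It passed (log2 fold change -2.55, SE 0.61). Cdc20 did not pass, with 66.5, 168, 80.8 and 67.5 CPM early against 61.7, 4.97 and 8.26 CPM, where P60 cortex lay close under P2 cortex. Pttg1 did not pass (log2 fold change -1.46, SE 0.83), with 66.5, 141, 14.0 and 74.9 CPM early and 81.5, 1.66 and 13.8 CPM in adults. Its P7 SVZ value lay beside the adult white matter value.

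Of 6 kinetochore members, Cenpf, Spc25 and Knl1 fell. Knl1 changed most of all members, by -3.07 on the log2 scale (SE 0.62, adjusted p = 0.0167 by edgeR), from 19.1, 50.7, 56.1 and 20.9 CPM to 7.41, 4.97 and 2.75 CPM. Its adult values rest on a few UMIs each. All 10 spindle members fell, among them the motor Kif11, which pushes the spindle poles apart, from 10.9, 30.7, 60.6 and 15.5 CPM to 7.41, 3.31 and 2.75 CPM (log2 fold change -2.98, SE 0.78). Aspm, which focuses spindle poles, went from 19.1, 40.3, 52.7 and 23.3 CPM to 17.3, 8.28 and 2.75 CPM, so that P60 cortex came close to P2 cortex.

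All 4 chromosome members fell. Top2a, the topoisomerase that untangles sister chromatids, stood at 138, 209, 293 and 138 CPM early (194 ± 73.7, SD, n = 4) and 59.3, 33.1 and 8.26 CPM in adults (33.5 ± 25.5, SD, n = 3), a log2 fold change of -2.72 (SE 0.46). Mki67, which coats mitotic chromosomes, stood at 61.9, 92.6, 157 and 63.8 CPM early and 34.6, 16.6 and 24.8 CPM in adults. Hmgb2, a chromatin protein with the highest levels of the list, stood at 393, 573, 609 and 435 CPM early and 247, 189 and 171 CPM in adults, a smaller change of -1.52 (SE 0.25).

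**Figure D2:**
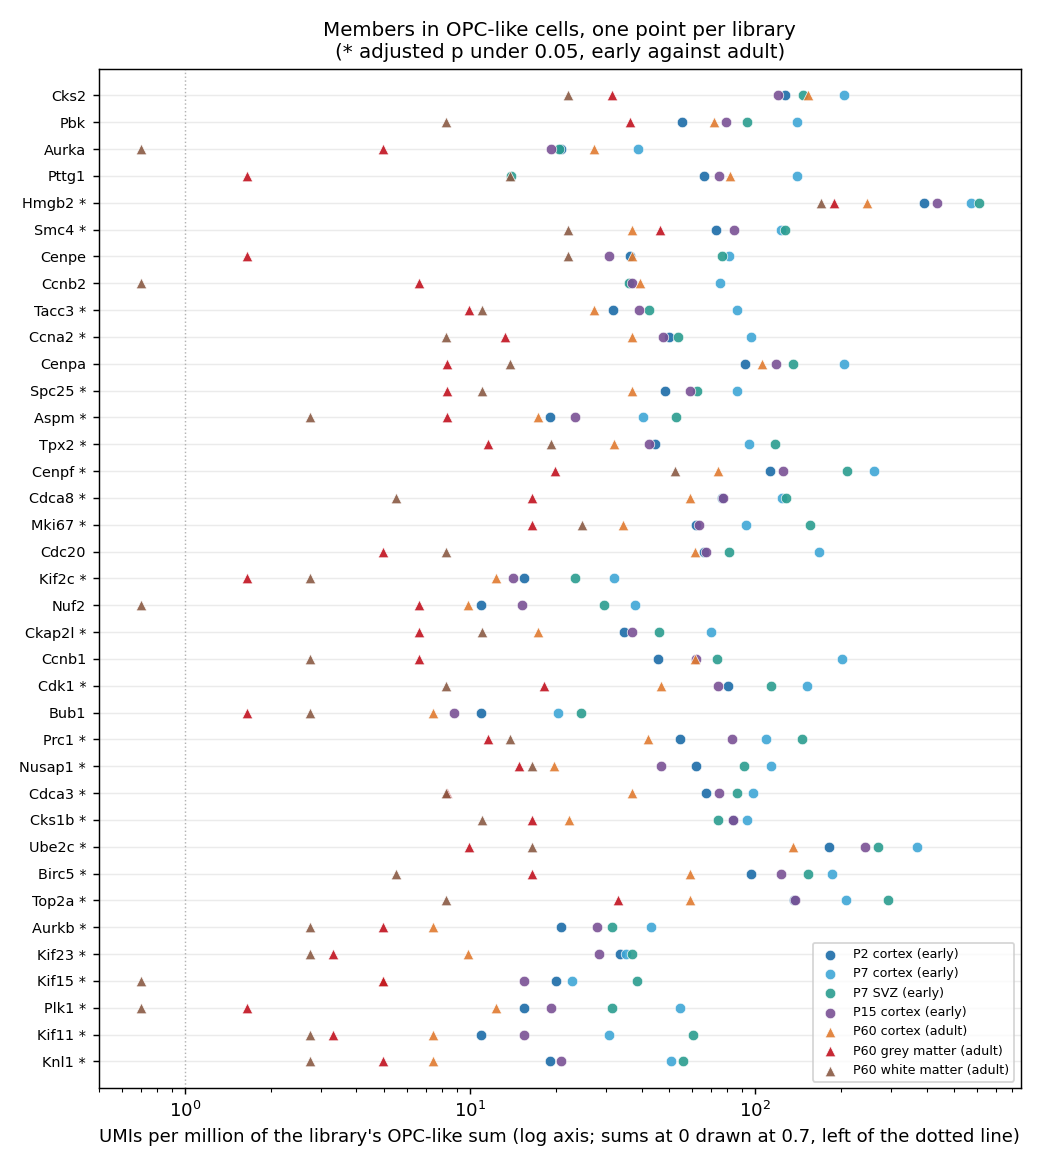
CPM (x axis, log scale) of the 37 members (y axis) in OPC-like sums of each library, with an asterisk where the adjusted p was under 0.05. The P60 grey and white matter points lie left of the early points for most members, while P60 cortex often lies beside P2 and P15 cortex.

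Other genes of the cycle moved alongside. Of 48 further mitosis genes tested, 21 were lower in adult OPC-like cells and 1 was higher. The largest falls were those of the chromokinesin Kif4 (-3.60, SE 0.87) and the spindle gene Spag5 (-3.55, SE 0.71), and Cit, a cytokinesis kinase, was the gene that rose (1.09, SE 0.30). Of 42 replication genes 16 were lower and 0 higher, with the checkpoint adaptor Clspn at -3.36 (SE 0.71) and the PCNA partner Pclaf at -3.30 (SE 0.47). Of 13 cycle exit genes, the inhibitors Cdkn2b (3.89, SE 0.64) and Cdkn1a (3.63, SE 0.39) were higher and 0 were lower.

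Summed over cells, neuroblast-like cells carried more of the members than OPC-like cells. Deeper cells weigh more in such sums, and the part of depth was not tested. In P2 cortex, dividing neuroblast-like cells had a median of 10037 UMIs before thinning, against 3751 in the class. Dividing OPC-like cells there had 9728 against 6341.5. In 6 libraries with both classes, 36 of 37 members were higher in neuroblast-like cells by edgeR (24.5% of all genes tested were higher), with a median log2 fold change of 1.23. Hmgb2 was 2.14 higher (SE 0.26), the condensin subunit Smc4 1.95 (SE 0.24) and Cks1b 1.84 (SE 0.26). Ccnb2 did not pass. Without the library block 21 members passed. Of 46 replication genes, 39 were higher as well.

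The dividing share of neuroblast-like cells was 6.99% in P2 cortex (10 of 143), 37.4% in P7 cortex (213 of 569), 30.7% in P7 SVZ (206 of 671), 16.3% in P15 cortex (8 of 49), 15.9% in P60 cortex (7 of 44) and 18.7% in P60 white matter (48 of 257, interval 14.1 to 24.0). Adult shares lay between those of P2 and P7. In P2 cortex the share was below that of OPC-like cells (13.4%), whereas in each other library listed it was above. Top2a stood at 188, 468, 687 and 215 CPM in the early sums and at 204 and 215 CPM in P60 cortex and white matter. Between stages 0 of 37 members passed by edgeR, 0 had an unadjusted p under 0.05 and 0 passed by DESeq2. Of all genes tested, 0.0223% were lower. Whether this differs from the OPC-like change was not tested. Calls were concentrated in clusters 31 and 22, where 85.5% and 79.7% of cells were called, against 5.66% in cluster 5. P7 SVZ cells of the class lay in clusters 13 and 31 and those of the other libraries mostly in clusters 5 and 22.

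In neural precursor-like cells the share was 20.98% in P2 cortex (94 of 448), 21.9% in P7 cortex (162 of 741), 30.5% in P7 SVZ (243 of 796) and 23.0% in P15 cortex (28 of 122). In P60 white matter 21 of 34 cells were called (61.8%, interval 43.6 to 77.8), the highest share among sets of 20 or more cells of this class. The libraries filled the class from different clusters, however. Cluster 18 held 82.4% of these P60 white matter cells, against 22.3% in P2 cortex, 27.4% in P7 cortex and 40.2% in P15 cortex. Within cluster 18 the shares lay closer, at 66 of 100 cells in P2 cortex, 65.0% in P7 cortex, 55.1% in P15 cortex and 71.4% in P60 white matter (20 of 28). Cluster 18 is itself rich in cycling cells, with Mcm2, Ccna2 and Rrm2 among its leading genes and 65.1% of its cells called. High shares in each library are thus built into it, and the part of cluster make-up in the class share was not tested. P7 SVZ cells lay mostly in clusters 16 (4.44% called) and 20 (64.3% called). P60 cortex held 8 such cells, of which 7 were called. No stage test could be run, since only P60 white matter had enough adult cells. Hmgb2 in P60 white matter reached 3080.4 CPM, against 936 to 1548 CPM in the early sums, whereas Top2a (283 CPM) lay inside the early range of 161 to 376 CPM. In excitatory intermediate precursor-like cells, which feed the cortical neurons, the share was 18.1% in P2 cortex (39 of 216), 29.2% in P7 cortex (69 of 236) and 17.2% in P7 SVZ (5 of 29).

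Astrocyte-like cells carried few calls, most of them in P7 cortex, with 74 of 1188 cells (6.23%). P7 SVZ gave 5 of 253 (1.98%), P15 cortex 1 of 710 (0.141%) and P60 cortex 1 of 853 (0.117%), and the other P60 libraries gave 0 of 83 and 0 of 80. The class came from different clusters: cluster 2 held 84.7% of P7 cortex cells, cluster 28 held 99.2% of P7 SVZ cells, cluster 8 held 93.2% of P15 cortex cells and cluster 0 held 78.3 to 96.5% of the cells of each P60 library, so early and adult cells lay mostly in different clusters. Against OPC-like cells, 35 of 37 members were lower by edgeR (28.1% of all genes), with a median log2 fold change of -4.04. Ube2c fell by 5.45 on the log2 scale (SE 0.53), Top2a by 5.01 (SE 0.69) and Mki67 by 4.71 (SE 0.57). Nuf2 (-1.49, SE 0.67) and Pttg1 (-1.78, SE 0.93) did not pass.

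Between stages, 0 of the 8 members tested in astrocyte-like cells passed by edgeR (5 at an unadjusted p under 0.05, and 1 by DESeq2). Of all genes tested 0.0283% were lower. Without P15 cortex, where Top2a stood at 0.264 CPM against 39.4 CPM in P7 cortex, 7 of 11 passed, where 9.18% of all genes tested were lower. The difference between the astrocyte-like and OPC-like stage changes passed for 0 of 37 members (3 at an unadjusted p under 0.05, 0 by DESeq2), where 0.148% of all genes were lower. Without P15 cortex 4 passed, where 7.53% of all genes were lower.

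Microglia-like cells were often called dividing at P7 and rarely later. The share was 33.0% in P7 cortex (115 of 348, interval 28.1 to 38.3) and 21.97% in P7 SVZ (29 of 132), and 5 of 18 cells were called in P2 cortex. It was 0.596% in P15 cortex (3 of 503), 0.510% in P60 cortex (4 of 785), 3.35% in P60 grey matter (37 of 1104, interval 2.37 to 4.59) and 0.923% in P60 white matter (3 of 325). Top2a stood at 93.8, 164 and 163 CPM in P2 cortex, P7 cortex and P7 SVZ, at 0.449 CPM in P15 cortex and at 1.04, 4.05 and 7.43 CPM in adults. P15 cortex therefore sided with the adult libraries, unlike in OPC-like cells. Different clusters made up the class at each point: cluster 19 held 96.3% of P7 cortex cells, cluster 45 held 87.9% of P7 SVZ cells, clusters 14 and 10 most of P15 cortex, cluster 3 most of P60 cortex, clusters 6 and 30 most of P60 grey matter and cluster 10 most of P60 white matter.

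With P15 cortex among the early libraries, 0 of 35 members passed between stages in microglia-like cells by edgeR, although 32 had an unadjusted p under 0.05 and 22 passed by DESeq2. The lowest adjusted p was 0.151 (edgeR), the median log2 fold change was -4.49, and 0.0418% of all genes were lower. Without P15 cortex 33 of 36 members passed, where 4.25% of all genes tested were lower. Against OPC-like cells, Cenpf (-1.23, SE 0.45) and Spc25 (-1.19, SE 0.46) were lower and the other 35 members did not pass, where 29.3% of all genes were lower. That count ran from 0 to 6 when libraries were left out in turn. It was 0 without P60 cortex or P60 white matter and 6 without P7 cortex or P7 SVZ, and without P15 cortex 0 were lower and 1 was higher.

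The calls in P60 grey matter were of another make. Of its 42 dividing calls, 37 (88.1%) were microglia-like, and of these 37 cells 35 held Hmgb2, 34 Cks2 and 21 Pttg1, whereas 1 held Top2a and 0 held Mki67 or Cdk1. They held 0.865 UMIs of the other mitosis genes on average, against 0.526 in microglia-like cells of that library without members. The sum held Hmgb2 at 281 CPM, Cks2 at 104 CPM and Pttg1 at 97.9 CPM beside Top2a at 4.05 and Mki67 at 1.39 CPM. When Hmgb2, Cks1b, Cks2, Smc4 and Pttg1 were left out of the call, 1 of 1104 cells (0.0906%) remained called. Microglia-like cells of this library were also deeper (median 7176.5 UMIs) than those of P60 cortex (2471.5) and P60 white matter (4160.0) before thinning, and the part of depth was not tested. Similar levels were found outside microglia-like cells. The 56 border macrophage-like cells of P60 grey matter held Hmgb2 at 234, Cks2 at 92.0 and Pttg1 at 97.9 CPM, with Top2a and Mki67 at 0. After thinning, 0 of 44 such cells were called.

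Endothelial-like cells reached 7.14% in P7 cortex (6 of 84). Against OPC-like cells 27 of 31 members were lower by edgeR (25.9% of all genes). Cenpf fell by 4.64 (SE 0.47), Ckap2l by 4.48 (SE 0.58) and Ube2c by 4.35 (SE 0.38) on the log2 scale. Hmgb2 (-0.42), Smc4 (-0.27), Kif23 (-1.01) and Pttg1 (-1.39) did not pass. Without the library block 4 members were tested and 0 passed. Between stages, Hmgb2 and Smc4 were the members tested and 0 passed by the same test (1 at an unadjusted p under 0.05, 0 by DESeq2, 4.29% of all genes lower). In COP-like cells 2 members were tested between stages and 0 passed (0 at an unadjusted p under 0.05, 0 by DESeq2, 0.0532% of all genes lower).

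**Figure D3:**
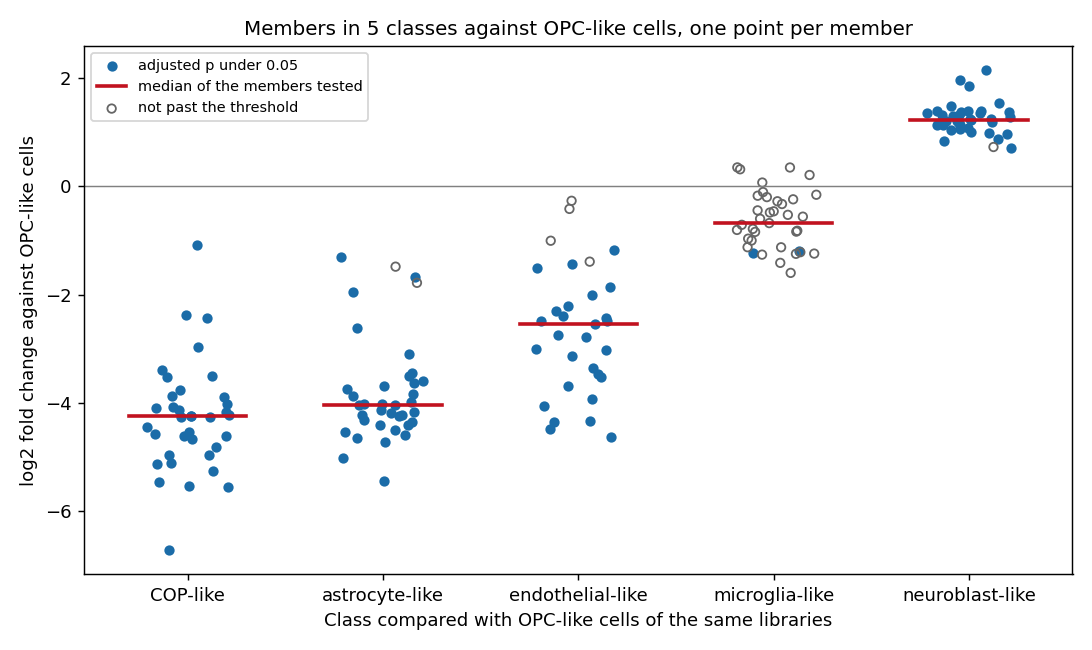
Log2 fold change (y axis) of each member against OPC-like cells of the same libraries for 5 classes (x axis), with filled points where the adjusted p was under 0.05 and a bar at the median. Members lie below 0 in astrocyte-like, COP-like and endothelial-like cells and above 0 in neuroblast-like cells.

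Not every member kept to dividing cells. For each member, cells were called again from the other 36, and the share of its thinned UMIs in cells not called was taken. It was 49.4% for Pttg1, 41.0% for Cks1b, 40.3% for Smc4, 32.7% for Hmgb2, 31.1% for Nuf2, 26.7% for Cks2 and 26.6% for Tacc3. The next member, the centromeric histone Cenpa, was at 14.4%, and the lowest were the checkpoint kinase Bub1 at 2.93% and the cyclin Ccna2 at 4.42%. Top2a was found in 53.1% of dividing and 0.645% of other cells, and Pttg1 in 25.9% and 3.82%. At a depth of 4000 UMIs 4 members were over 25%, where 7 were at 2000. Of the 5 members whose promoters held neither motif, Pttg1, Nuf2 and Tacc3 were among the 7, whereas Birc5 (5.94%) and Nusap1 (8.84%) were not. Cks1b, Hmgb2 and Cks2 were among the 7 although their promoters held a motif, and Smc4 had no promoter entry.

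**Figure D4:**
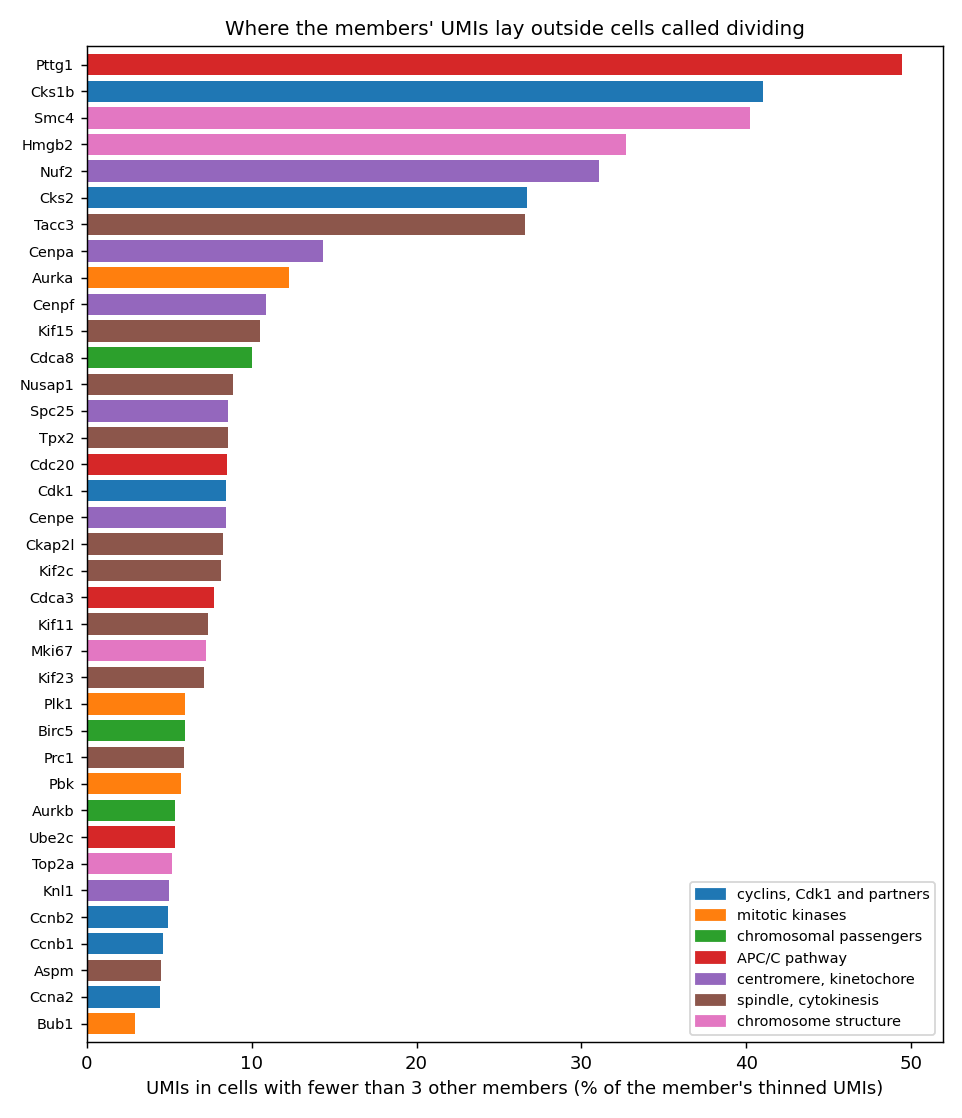
Percent of each member's thinned UMIs (x axis) found in cells with fewer than 3 other members, coloured by role, for the 37 members (y axis). The top 7 bars run from 26.6 to 49.4% and the rest end at or below 14.4%.

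These members differed in where they appeared. Hmgb2 was in 37.8% of neural precursor-like cells not called dividing (632 of 1671), 23.9% of microglia-like (734 of 3066) and 16.3% of OPC-like cells (243 of 1489), against 2.69% of excitatory neuron-like cells (57 of 2122). Cks1b was found at low shares in neurons too, at 6.27% of excitatory neuron-like (133 of 2121), 8.72% of neuroblast-like (110 of 1261) and 3.81% of OPC-like cells (56 of 1471), so the OPC-like value did not exceed that of the neurons. Smc4 was in 13.6% of neural precursor-like cells (222 of 1633) and 2.03% of excitatory neuron-like cells (43 of 2121). Cks2 was in 16.1% of microglia-like cells not called in P60 grey matter (176 of 1095), against 4.98% in P60 cortex and 5.59% in P60 white matter.

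Nuf2, part of the complex that grips microtubules at the kinetochore, was also found in ependymal-like cells, the ciliated lining of the ventricles. It was in 28 of 99 ependymal-like cells not called dividing (28.3%, interval 19.7 to 38.2), against 3 of 2121 excitatory neuron-like cells (0.141%). In ependymal-like sums it stood at 107 CPM in P7 cortex and 461 CPM in P15 cortex, where Spc25, its partner in the same complex, stood at 16.2 and 0 CPM. Among ependymal-like cells that were called (39 of 132, 29.5%), Cks2 was found in 17 of 39, Cdc20 in 13 of 39, Ckap2l and Top2a in 11 of 39 each, Mki67 in 1 of 38 and Nusap1, Spc25 and Kif15 in 0 of 39. The Nuf2 promoter shown above holds neither motif, but a link to these levels was not tested. Nuf2 also stood at 48.4 CPM in astrocyte-like cells of P7 SVZ against 10.4 CPM in those of P7 cortex.

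Pttg1 set P7 SVZ apart from P7 cortex. Pttg1, at chr11:43420250-43426251 on the minus strand of mm10, encodes securin, which holds separase in check until anaphase. In OPC-like cells it had 62 UMIs in P7 SVZ (14.0 CPM) and 352 in P7 cortex (141 CPM), a ratio of 0.0993 (exact 95% interval 0.0746 to 0.130). The ratio was 0.0824 in neuroblast-like cells (0.0637 to 0.105), 0.0626 in excitatory intermediate precursor-like cells, 0.284 in microglia-like cells (0.194 to 0.403) and 0.454 in neural precursor-like cells. When the cycle genes were kept for clustering, the neural precursor-like ratio turned to 4.67 and the neuroblast-like one was 0.135, so the direction in neural precursor-like cells depends on how the class is drawn. With 1 library on each side there is no test, and strain, region and library cannot be told apart.

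Pttg1 was the 1 member of 37 at least 4-fold lower in P7 SVZ in OPC-like, neuroblast-like and excitatory intermediate precursor-like cells, where 0.376, 0.45 and 4.47% of all genes were. The other 36 members had ratios of 0.365 to 1.97 (median 0.7998) in OPC-like and 0.569 to 2.04 (median 0.988) in neuroblast-like cells. The highest ratio in both was that of Kif11, at 60.6 against 30.7 CPM and 138 against 67.6 CPM, and Mki67 was likewise higher in P7 SVZ, at 157 against 92.6 CPM and 298 against 149.8 CPM. The lowest besides Pttg1 was that of Ccnb1. Clusters differed between the libraries here too, with cluster 11 holding nearly all OPC-like cells of P7 SVZ.

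Within dividing cells, called without Pttg1, the gap remained. Pttg1 was found in 11 of 22 dividing OPC-like cells of P2 cortex, 29 of 72 of P7 cortex (40.3%) and 22 of 65 of P15 cortex (33.8%), and in 5 of 121 of P7 SVZ (4.13%, interval 1.36 to 9.38). Among dividing neuroblast-like cells it was found in 79 of 211 of P7 cortex (37.4%), 21 of 46 of P60 white matter (45.7%) and 12 of 206 of P7 SVZ (5.83%). Top2a, in dividing OPC-like cells called without Top2a in its turn, was found in 76 of 116 of P7 SVZ (65.5%) and 42 of 73 of P7 cortex (57.5%). P7 SVZ was the lowest library in each set, and its share of cells with Pttg1 there was near that of excitatory neuron-like cells not called dividing (96 of 2122, 4.52%), at the same thinned depth.

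Outside dividing cells the order depended on the class. Among astrocyte-like cells not called dividing, 38 of 249 of P7 SVZ held Pttg1 (15.3%, interval 11.03 to 20.3) and 22 of 1119 of P7 cortex did (1.97%), and the sums stood at 84.2 and 26.1 CPM, a ratio of 3.23 (2.64 to 3.94). Most other members had ratios under 1 in the same pair: 23 of 33 were at least 4-fold lower in P7 SVZ astrocyte-like cells, where 2.53% of all genes were, with a median ratio of 0.0856 without Pttg1. Nuf2 was an exception, with a ratio of 4.66. These P7 SVZ and P7 cortex cells sit in different clusters, 28 and 2. Cells not called dividing held Pttg1 more often in P7 SVZ than in P7 cortex also among neural precursor-like (12.3 against 1.72%) and OPC-like cells (4.16 against 0.826%). Neuroblast-like cells went the other way, at 0.430% in P7 SVZ (2 of 465) and 3.35% in P7 cortex (12 of 358). The OPC-like value for P7 SVZ was no higher than that of excitatory neuron-like cells.

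Microglia-like cells gave a similar contrast between the adult regions. In P60 grey matter 149 of 1082 cells not called dividing held Pttg1 (13.8%), and the white over grey matter ratio of the sums was 0.120 (0.0720 to 0.189). Of 7 members with enough UMIs, Pttg1 was the 1 at least 4-fold lower in white matter, where 3.32% of all genes were. Cks2 had a ratio of 0.280 (0.204 to 0.376) and Hmgb2 0.529 (0.461 to 0.605).

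**Figure D5:**
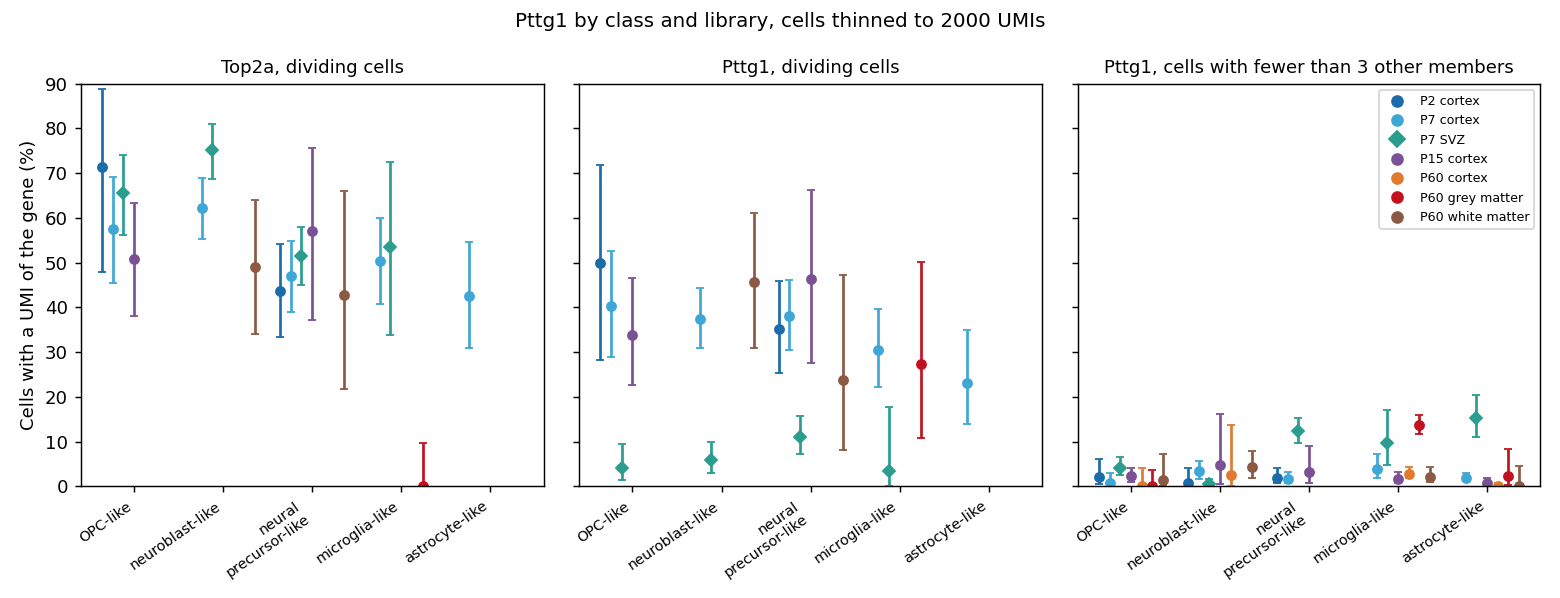
Percent of cells with a UMI (y axis) of Top2a and of Pttg1 in dividing cells, called each time without the gene plotted, and of Pttg1 in cells with fewer than 3 other members, by class (x axis) and library, with cells thinned to 2000 UMIs. P7 SVZ is at 4.13% for Pttg1 in dividing OPC-like cells but at 65.5% for Top2a.

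Some members overlap other genes, and whether reads were counted by strand is not given in the sources used here. Ccna2 overlaps Exosc9, Nusap1 overlaps Oip5, Ube2c overlaps Tnnc2, Cdc20 overlaps Elovl1, Tacc3 overlaps Tmem129, Cdca8 overlaps 9930104L06Rik, Prc1 overlaps Rccd1 and 6330403N20Rik, and Ckap2l overlaps the antisense gene Gm14024. Cks1b has a near copy, Cks1brt, in the files. Their values are uncertain to that extent.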

How the data were processed

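Single-cell RNA was measured in 7 droplet libraries. Each matrix deposited by the authors lists unnormalized UMI counts from Cell Ranger 3.0.2, per the file headers. Build mm10 is named in the submitters' processing notes. Which annotation release was used, and whether counting used strand, is not given in the sources used here. Positions came from GENCODE M21 (30934 of 31053 genes matched).

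Barcodes with under 500 genes (1304) or over 10% mitochondrial UMIs (4391, a barcode can fail both) and 293 doublets that scrublet called (scanpy 1.11.5, with 0.06 as the rate) were left out. Cells were clustered (2000 variable genes, 30 components, 15 neighbours, Leiden resolution 1.5, seed 1) without 226 cycle genes, giving 59 clusters, and named from markers. Counts were summed per class and library with at least 20 cells and tested with edgeR 4.0.16 (R 4.3.3; TMM, filterByExpr, quasi-likelihood F test, Benjamini-Hochberg at 0.05 over all genes tested), with the library as a block between classes. DESeq2 1.42.0, other filters, cell limits, clustering genes and left-out libraries were alternatives. On simulated data for the OPC-like stage test (9835 genes, 200 of them changed), 2-fold changes were recovered in 7.5%, 4-fold in 80.0% and 8-fold in 89.5%. Recovery of 4-fold changes was lower in the stage tests of astrocyte-like (50.5%), neuroblast-like (57.0%) and microglia-like cells (63.5%). Members that did not pass in those tests can therefore still have changed. Regional pairs have 1 library per side: CPM with exact Poisson intervals, for genes with at least 50 UMIs in both sums together, and no test. Shares got exact binomial 95% intervals and no test.

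Members given value by value were a set list plus, per comparison, the 3 members with the largest change among those past the threshold. The members and lists were chosen with earlier results of these data known. Pttg1, Nuf2, Smc4, Tacc3 and the cells of P60 grey matter were followed further after their values were seen.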

Additional observations from a re-analysis of the deposited data

Results flagged for a closer look

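In the 4 early libraries, 6 of 148 groups of values had a library far from the other 3. Chance gives about 5 percent of groups, so this count is no more than chance gives. In OPC-like cells P7 cortex stood above the other early libraries for Ccnb2 (75.5 CPM), Ccna2 (97.0 CPM), Aurka (38.7 CPM) and Cdc20 (168 CPM). In neuroblast-like cells Kif23 was low in P2 cortex (20.4 CPM). In microglia-like cells Bub1 was at 0 CPM in P15 cortex, apart from the other early libraries.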

How the results depend on the processing

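Counts of members called are given here where a setting moved them by over 1.5 times. Neither these counts nor those above from DESeq2 or without the library block stand beside the share of all genes called under the same setting. They therefore do not show whether the members moved more than other genes did. With DESeq2, 1 member passed between stages in astrocyte-like cells, 22 in microglia-like cells and 10 in microglia-like against OPC-like cells. Without the filter on low counts, 1 passed between stages in COP-like, 9 in astrocyte-like, 1 in neuroblast-like, 32 in microglia-like and 8 in endothelial-like cells, 7 in microglia-like against OPC-like cells and 3 in the difference between astrocyte-like and OPC-like stage changes. With doublet calls kept, 1 passed in endothelial-like cells between stages and 1 in microglia-like against OPC-like cells. That last comparison gave 4 with RLE size factors and 4 with at least 40 cells per sum. Without the library block it gave 0, COP-like 12, neuroblast-like 21 and endothelial-like 0. Leaving out each library in turn gave 1 to 30 members in OPC-like, 0 to 7 in astrocyte-like, 0 to 33 in microglia-like and 0 to 1 in endothelial-like cells between stages, 0 to 6 in microglia-like against OPC-like cells and 0 to 4 in the difference of stage changes.

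The dividing share of OPC-like cells in P7 cortex was 31.3% at 4000 UMIs, 41.6% without thinning and 31.2% with at least 2 members. In astrocyte-like cells of P7 cortex it was 3.48% at 1000 UMIs, 12.3% at 4000, 23.3% without thinning, 14.9% with at least 2 members, 3.70% with at least 5, 4.21% without Hmgb2, Cks1b, Cks2, Smc4 and Pttg1 and 8.06% with cycle genes kept for clustering. In microglia-like cells of P7 cortex it was 25.4, 44.3, 60.9, 43.97, 25.6 and 27.6% under the first 6 of these settings. Members with over 25% of UMIs outside dividing cells numbered 4 at 4000 UMIs. With cycle genes kept for clustering, an alternative chosen after seeing the data, the Pttg1 ratio was 4.67 in neural precursor-like and 0.135 in neuroblast-like cells. The causes were not tested. Over all settings, 300 shares moved and 482 did not, and 34 counts moved and 135 did not. Of single members' calls, 4155 kept direction and side of the threshold, 172 newly passed and 109 no longer did, and 0 reversed. Adult OPC-like sums hold 362985 to 604013 UMIs, so members of a few CPM there rest on a few UMIs. The stage test in neural precursor-like cells, and some settings in small classes, could not be run. Between classes the library was the block. Between stages no such block exists. No paired analysis was possible because the labels give no replicate numbers and tie no early library to an adult one.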
